A study of Homo sapiens with 6 samples.

Results

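The loci described here are the H3K4me3-marked regions of chromosomes 1 to 22 in Low-Chir and Boost-Chir neural progenitors, compared for width, summit position and enrichment. All peaks of both H3K4me3 lists on those chromosomes were members, 42647 from Low-Chir and 45390 from Boost-Chir, of 142800 peaks in the 4 lists of the series. Peaks of either list that lay within 3 kb of each other were joined, which gave 15988 loci. Of these, 13950 held a peak of each list. The joining distance met few borderline cases, since 339 joined gaps measured 2500 to 3000 bp and 264 gaps of 3000 to 3500 bp were not joined, against 32539 joined gaps in all.

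The cells were neural progenitors on day 11, derived from the human embryonic stem cell line H9 and on the way to midbrain dopamine neurons. Both conditions began on day 0 in Neurobasal with N2 and B27, the SHH protein C25II, LDN and SB431542 (inhibitors of BMP and of TGF-beta receptor signalling), 0.7 µM CHIR99021 and 10 µM of the ROCK inhibitor Y-27632. Boost-Chir cells received 7.5 µM CHIR99021 from day 4 to day 10. The labels give 0.7 µM as the lowest of the concentrations applied from day 4 and do not say which of them Low-Chir stands for. LDN, SB431542 and SHH were removed on day 7, and from day 10 both conditions were in BDNF, ascorbic acid, GDNF, TGFβ3, dibutyryl cAMP and 3 µM CHIR99021. Each mark was sequenced in 1 library per condition from 1 cell line, so no test was possible and every difference below lacks a replicate check.

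H3K4me3 is a histone mark placed around the starts of genes that are active or held ready for activity, and broad domains of it are known at regulators of cell identity. H3K27me3 is the mark of Polycomb repression, and both marks together are typical of developmental genes held in a poised state. CHIR99021 inhibits the kinase GSK3, which otherwise sends β-catenin to destruction. The stabilised β-catenin then works with TCF and LEF proteins at WNT target genes, many of which encode inhibitors of the same pathway. In the early neural tube a high WNT level is known to favour posterior fates over anterior ones, with the midbrain and its border with the hindbrain (the isthmus) behind the forebrain.

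The 4 promoters below are examples, chosen with the values of their loci known. SP5, DKK1 and SP8 are also the 3 of 11 WNT pathway promoters that hold the letters marked below. SP5 and DKK1 carried far more H3K4me3 in Boost-Chir, SP8 is a relative of SP5 that differed little, and DMRTA2 kept little covered length in Boost-Chir. The sequences are the 250 bases before the gene start, read 5′ to 3′ on the strand of the gene, from RefSeq on GRCh38.p14. SP5 (chromosome 2) and DKK1 (chromosome 10) lie on the plus strand, and SP8 (chromosome 7) and DMRTA2 (chromosome 1) on the minus strand. Capitals mark CTTTGNN on either strand where each N is an adenine or a thymine, the usual TCF/LEF core, and no marked stretch overlaps another.
SP5: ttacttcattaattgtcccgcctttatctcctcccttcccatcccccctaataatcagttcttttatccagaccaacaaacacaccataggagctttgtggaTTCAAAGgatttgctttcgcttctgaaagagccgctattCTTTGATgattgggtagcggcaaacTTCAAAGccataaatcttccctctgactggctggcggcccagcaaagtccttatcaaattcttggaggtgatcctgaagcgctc
DKK1: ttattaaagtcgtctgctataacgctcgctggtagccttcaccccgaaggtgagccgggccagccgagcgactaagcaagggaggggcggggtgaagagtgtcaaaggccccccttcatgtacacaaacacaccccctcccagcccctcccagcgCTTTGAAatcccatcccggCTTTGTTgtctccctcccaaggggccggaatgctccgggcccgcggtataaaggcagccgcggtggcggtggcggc
SP8: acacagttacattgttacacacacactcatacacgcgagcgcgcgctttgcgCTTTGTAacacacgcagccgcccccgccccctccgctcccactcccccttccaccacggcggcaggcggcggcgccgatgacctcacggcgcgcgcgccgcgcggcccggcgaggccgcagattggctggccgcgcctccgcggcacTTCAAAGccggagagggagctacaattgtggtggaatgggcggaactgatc
DMRTA2: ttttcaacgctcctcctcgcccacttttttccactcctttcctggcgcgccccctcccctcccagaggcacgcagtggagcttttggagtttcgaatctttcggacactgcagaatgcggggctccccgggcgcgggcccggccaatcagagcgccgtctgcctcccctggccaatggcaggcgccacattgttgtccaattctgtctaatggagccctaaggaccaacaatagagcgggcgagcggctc
SP5 held 3 such stretches, DKK1 2, SP8 2 and DMRTA2 0. At least 1 was found in 4199 of all 35116 promoters of the same length in that table, or 11.96%. Among the landmark genes described below, 74 of 102 had a promoter in the table. The letters occurred in 3 of 11 WNT pathway promoters, 2 of 16 midbrain, 2 of 14 forebrain, 2 of 3 hindbrain, 1 of 9 progenitor, 0 of 3 pluripotency, 1 of 5 other-lineage and 1 of 13 constitutive promoters. They did not follow the direction of the loci, since DBX1, narrower in Boost-Chir, held 3, and LEF1, TCF7, RNF43, PAX2 and PAX5, wider in Boost-Chir, held 0. A match describes the letters alone and is neither a binding site nor a cause.

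Both libraries gave similar lists. The median peak measured 462 bp in Low-Chir against 454 bp in Boost-Chir, while the mean was 876.9 and 1063.6 bp, so the lists differed in their longer peaks. Covered length summed to 37.4 Mb in Low-Chir against 48.3 Mb in Boost-Chir. Fold enrichment is the authors' own value for each peak, the reads at the summit over a local background estimate. Its median was 4.99 in Low-Chir against 4.47 in Boost-Chir. The reads at each summit were recovered from the fold enrichment and p-value, and their median was 17 in Low-Chir against 18 in Boost-Chir, with a range of 8 to 93 and 9 to 118. The genome-wide background was 2.21 reads in Low-Chir against 2.67 in Boost-Chir, a depth ratio of 1.21. Intervals given below for reads are 95% Poisson intervals and those for shares are exact (Clopper-Pearson) binomial intervals, and both cover counting error only. Whether more cells with a mark or more mark per cell lies behind a value cannot be told apart in bulk chromatin.

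The cell type labels were set against marker genes. Every locus named by a gene is the locus that holds, or lies within 3 kb of, that gene's hg19 start, taken from general knowledge and not from a deposited annotation. No locus was shared by a pair of landmarks. The landmark lists were chosen with earlier results of these data known. All 11 neural progenitor landmarks had a locus in both lists, among them SOX2 and NES. Of 6 pluripotency landmarks, POU5F1, NANOG, TDGF1 and ZFP42 had no peak in either list and LIN28A and DPPA4 had a locus in both. H3K4me3 marks a promoter and does not measure expression.

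Most loci carried the mark in both conditions. The 13950 shared loci made up 87.3% of all loci (86.7 to 87.8), 1297 loci (8.11%, 7.69 to 8.55) were found in Boost-Chir alone and 741 (4.63%, 4.31 to 4.97) in Low-Chir alone. Loci of a single list were short and weak. Their median length was 252 bp in Low-Chir against 280 bp in Boost-Chir, against 4154.5 bp for shared loci, and 87.4% and 81.0% of them were a single peak. The median of their strongest summit was 4.05-fold with 13 reads in Low-Chir and 3.81-fold with 14 reads in Boost-Chir, below the medians of 17 and 18 reads over all peaks. The highest value was 8.72-fold among Low-Chir loci and 11.2-fold among Boost-Chir loci, while shared loci reached a median of 8.99-fold and 10.1-fold.

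Shared loci were longer in Boost-Chir. The median length under peaks was 2340 bp in Low-Chir against 3060 bp in Boost-Chir, the median ratio was 1.28, and 81.9% of loci were longer in Boost-Chir. A ratio of at least 1.5 was reached by 3755 loci in the Boost-Chir direction (26.9%) and by 560 in the Low-Chir direction (4.01%), so 87.0% of the loci past 1.5 times were wider in Boost-Chir. Divided by the median ratio of 1.28, the split was 49.4%. A nearly even split follows largely from that division, which centres the ratios on 1, so it does not measure spread. With 81.9% of loci longer in Boost-Chir, the difference in length was spread over most loci. Single loci are read below against 1.28. The Boost-Chir library was also 1.21 times as deep, and the part of depth in this ratio was not tested. The order of loci by length was largely shared, with a Spearman rho of 0.912 over 13950 loci measured in the same pair of libraries.

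The added length lay on both sides of the loci. The left edge lay a median of 210 bp farther out in Boost-Chir and the right edge 203.5 bp, and both edges lay farther out at 48.2% of loci and farther in at 10.8%. Peak number differed less evenly than length. Boost-Chir had more peaks at 5350 loci, of which 92.8% were longer, an equal number at 4134, of which 79.1% were longer, and fewer at 4466, of which 71.4% were still longer. Loci with fewer and longer peaks include EN1, where 14 Low-Chir peaks stood against 5 in Boost-Chir.

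Genes of the WNT pathway had wide loci in Boost-Chir. Of 18 landmarks in this list, 16 had a locus in both lists and WNT1 and WNT3A, which encode canonical ligands, had no peak in either. At 10 of the 16 the covered length was at least 1.5 times as great in Boost-Chir, and at 0 it was 1.5 times as great in Low-Chir, beside 26.9% and 4.01% of all shared loci. The median ratio of the list was 1.83, and 11 of 16 loci lay above the overall 1.28, beside 10 of 15 constitutive loci. The strongest summit was at least 1.5 times as high in Boost-Chir at 4 loci and in Low-Chir at 1, beside 11.8% and 5.03% of all shared loci.

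**Figure D1:**
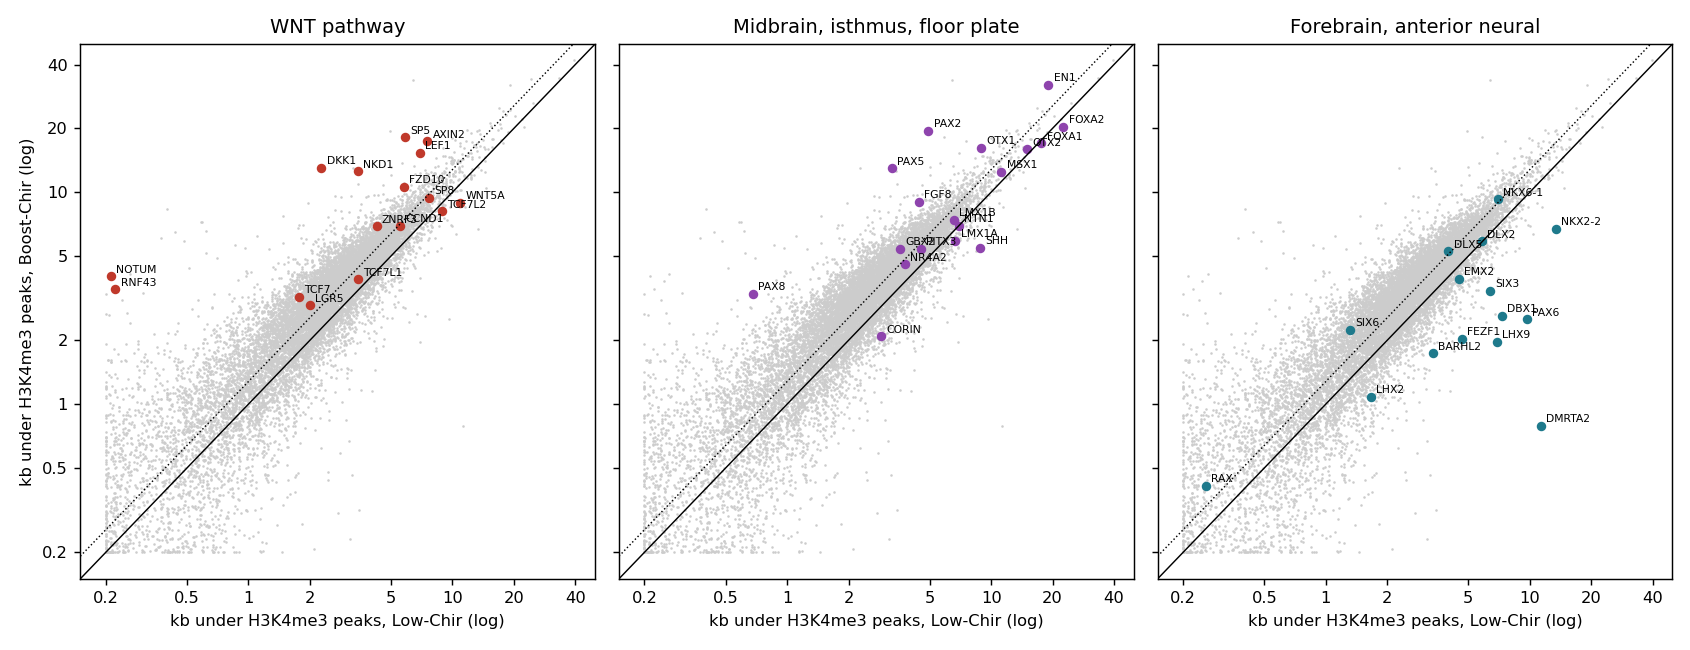
Length under H3K4me3 peaks (kb, log axes) in Low-Chir (x) and Boost-Chir (y) for all loci in both lists (grey points) and for named landmark genes of each list (coloured, 1 panel a list), with equality as the solid line and the median ratio of 1.28 as the dotted line. DKK1, NKD1 and SP5 sit far above the dotted line, PAX2 and PAX5 likewise, and PAX6 and DMRTA2 far below it.

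Feedback inhibitors of the pathway led the list. AXIN2, a scaffold of the complex that destroys β-catenin, covered 7.53 kb in Low-Chir against 17.4 kb in Boost-Chir (chr17:63537571-63558621), 2.31 times as much. Its strongest fold enrichment was 13.4 and 12.9, but the reads at that summit were 42 and 70, over a local background of 2.21 and 4.51. By reads above background per unit of depth the ratio was 1.36. NKD1, which binds Dishevelled and dampens the signal, covered 3.43 and 12.5 kb (chr16:50581128-50595082), with 12.8-fold and 17.97-fold at the strongest summit. DKK1, a secreted blocker of the LRP co-receptors, covered 2.27 and 13.1 kb (chr10:54066710-54080504). Its strongest summit had 28 reads in Low-Chir (18.6 to 40.5) and 68 in Boost-Chir (52.8 to 86.2), or 7.75-fold and 15.6-fold. These reads are not adjusted for depth and come from summits 2113 bp apart. The ratio by reads above background per unit of depth was 2.12.

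The weakest loci of this group were nearly bare in Low-Chir. NOTUM, a secreted enzyme that inactivates WNT proteins, had a single Low-Chir peak of 0.212 kb with 11 reads (5.49 to 19.7) and covered 4.02 kb in Boost-Chir with 36 reads (25.2 to 49.8). RNF43, a membrane ubiquitin ligase that removes WNT receptors, had 1 Low-Chir peak of 0.223 kb and covered 3.48 kb in Boost-Chir. With so short a length in Low-Chir, the ratios of 18.9 and 15.6 rest on single short peaks of 11 and 19 reads. ZNRF3, the partner of RNF43, covered 4.24 and 6.91 kb with nearly equal heights of 13.4-fold and 14.1-fold.

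Among the transcription factors SP5 stood apart. SP5, a zinc finger protein and direct WNT target, covered 5.84 kb in Low-Chir against 18.1 kb in Boost-Chir (chr2:171561391-171582575), with 8 peaks in each. Its strongest summit was 6.07-fold with 24 reads (15.4 to 35.7) in Low-Chir and 19.4-fold with 75 reads (59.0 to 94.0) in Boost-Chir. SP5 had 1 summit pair within 250 bp. The pair lay 110 bp apart and read 4.05-fold in Low-Chir against 16.3-fold in Boost-Chir, under peaks of 569 and 7018 bp. SP8 covered 7.66 and 9.44 kb, a ratio of 1.23 that falls short of the overall median, and its strongest summits lay 10 bp apart. Its promoter carries the letters marked above, as those of SP5 and DKK1 do.

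LEF1, which carries β-catenin to DNA, covered 6.92 and 15.3 kb, 2.22 times as much in Boost-Chir. TCF7 covered 1.77 and 3.20 kb, or 1.81 times as much. The family members TCF7L1, 3.43 and 3.88 kb, and TCF7L2, 8.88 and 8.14 kb, were not wider than the overall ratio. TCF7L2 was the 1 WNT locus whose fold enrichment was over 1.5 times as high in Low-Chir, 15.9 against 10.2. By reads above background per unit of depth its ratio was 0.87, since the Boost-Chir background there was 4.51 reads and the Low-Chir background 2.21. On that scale WNT5A was past 1.5 times in the Low-Chir direction, at 0.64, and FZD10 in the Boost-Chir direction, at 1.75.

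Receptors and other members ranged from wider to shorter in Boost-Chir. FZD10, a WNT receptor, covered 5.77 and 10.6 kb, 1.84 times as much. LGR5, the receptor for R-spondins, covered 2.00 and 2.92 kb with strongest summits 62 bp apart. CCND1, the cyclin D1 gene, covered 5.51 and 6.92 kb, which is 1.26 times and near the overall ratio. WNT5A, a ligand that acts mostly outside the β-catenin branch, had the opposite order, with 10.9 kb in Low-Chir against 8.89 kb in Boost-Chir and 13.49-fold against 9.53-fold.

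H3K27me3 at the same loci went the other way for most of these genes. Of the 16 WNT loci, 10 held H3K27me3 in at least 1 condition, and its length was shorter in Boost-Chir at 9 and longer at 1. Over all shared loci with H3K27me3 in either condition, 57.3% were shorter and 39.3% longer. SP5 held 9.83 kb of H3K27me3 in Low-Chir against 0 in Boost-Chir, FZD10 8.22 and 0 kb, LEF1 2.92 and 0 kb, and DKK1 2.33 and 0 kb. NOTUM held 4.81 and 0.21 kb. The exception was WNT5A, with 0 kb in Low-Chir against 2.35 kb in Boost-Chir.

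**Figure D2:**
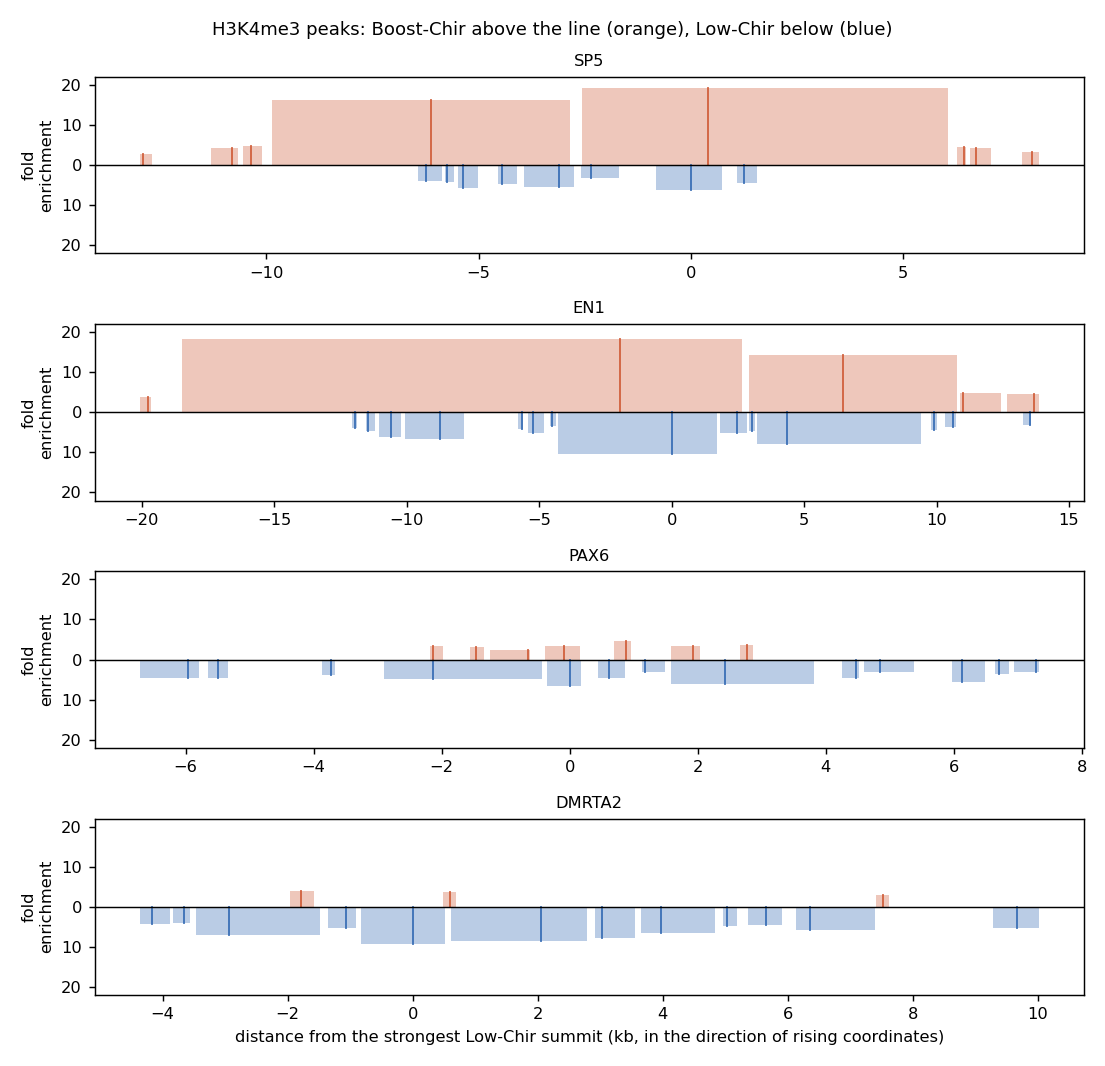
Peaks at SP5, EN1, PAX6 and DMRTA2, drawn as bars over their length (kb from the strongest Low-Chir summit) and as high as their fold enrichment, with Boost-Chir upward, Low-Chir downward and summits as vertical lines. SP5 and EN1 show long Boost-Chir peaks of up to 19.4-fold and 18.4-fold over shorter Low-Chir peaks, while PAX6 and DMRTA2 show many Low-Chir peaks and few Boost-Chir ones.

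Midbrain, isthmus and floor plate genes included both wider and narrower loci. Of 22 landmarks, 18 had a locus in both lists, EN2 had one in Boost-Chir alone, and DMBX1, BARHL1 and TH had no peak in either. TH encodes the rate-limiting enzyme of dopamine synthesis, a feature of mature neurons. At 7 of the 18 the covered length was at least 1.5 times as great in Boost-Chir and at 1 in Low-Chir, beside 26.9% and 4.01% of all shared loci. The list's median ratio of 1.16 was below the overall 1.28, since 6 loci were shorter in Boost-Chir.

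The wide loci belonged to EN1, PAX2, PAX5, PAX8, FGF8, OTX1 and GBX2, factors and a signal of the midbrain and the midbrain-hindbrain border. EN1, a homeobox factor needed by midbrain dopamine neurons, covered 19.0 and 32.2 kb (chr2:119582524-119616457). Its strongest summit had 32 reads in Low-Chir (21.9 to 45.2) and 67 in Boost-Chir (51.9 to 85.1), or 10.3-fold and 18.4-fold. EN2, its relative, had no Low-Chir peak and 6 Boost-Chir peaks over 4.55 kb (chr7:155247312-155253834), the highest at 7.72-fold with 29 reads. Loci in Boost-Chir alone made up 8.11% of all loci, and their median length was 280 bp.

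The paired-box genes of the isthmus differed in the same direction. PAX2 covered 4.92 and 19.4 kb (chr10:102489438-102514179) with 6.59-fold and 12.1-fold at the strongest summit. PAX5 covered 3.26 and 12.9 kb (chr9:37021803-37037526) with 6.38-fold and 10.2-fold, and its strongest summits lay 64 bp apart. PAX8 covered 0.679 and 3.31 kb. FGF8, the organiser signal of the isthmus, covered 4.41 and 8.98 kb. GBX2, a factor of the hindbrain side, was longer in Boost-Chir at 3.59 and 5.41 kb, but its strongest summit was 6.89-fold in Low-Chir against 5.13-fold in Boost-Chir.

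The 6 loci of the list that were shorter in Boost-Chir were those of SHH, CORIN, LMX1A, FOXA2, FOXA1 and NTN1. They were grouped after their values were seen, and the ratios of NTN1 and FOXA1, 0.998 and 0.966, were close to 1. SHH, the ventral signal, covered 8.81 kb in Low-Chir against 5.47 kb in Boost-Chir (chr7:155595006-155606391), with 13.8-fold and 8.71-fold and 45 and 31 reads. CORIN, a floor plate surface protease, covered 2.88 and 2.09 kb. LMX1A, a determinant of midbrain dopamine progenitors, covered 6.68 and 5.90 kb, with 10.5-fold and 7.06-fold. FOXA2, a forkhead factor of the floor plate, covered 22.5 and 20.3 kb, FOXA1 17.6 and 17.03 kb, and NTN1, a guidance cue, 6.96 and 6.95 kb. The strongest summits of FOXA2, 14.1-fold and 15.1-fold, and of FOXA1, 12.9-fold and 14.3-fold, were slightly higher in Boost-Chir. In covered length SHH alone passed 1.5 times. LMX1B, MSX1, OTX2, NR4A2 and PITX3 were longer in Boost-Chir but also lay below the overall 1.28, at 1.13, 1.11, 1.06, 1.21 and 1.20.

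LMX1B, a factor related to LMX1A and also expressed at the isthmus, covered 6.55 and 7.39 kb. OTX1 covered 8.94 and 16.2 kb, and OTX2, which defines forebrain and midbrain together, 14.98 and 15.9 kb. MSX1, a WNT- and BMP-responsive factor, covered 11.2 and 12.4 kb, NR4A2, a regulator of dopamine neuron genes, 3.77 and 4.56 kb, and PITX3, another such regulator, 4.52 and 5.42 kb. The strongest summit was at least 1.5 times as high in Boost-Chir at 6 of the 18 loci, namely EN1, PAX2, PAX5, MSX1, OTX2 and NR4A2, beside 11.8% of all shared loci. For MSX1, OTX2 and NR4A2 the ratios of 1.59, 1.56 and 1.92 were 1.36, 1.05 and 1.13 by reads above background per unit of depth. Their Low-Chir local backgrounds were 4.68, 3.90 and 4.68 reads. By fold, SHH was the 1 locus past 1.5 times in the Low-Chir direction. By reads above background per unit of depth SHH, LMX1A and GBX2 were past it, with ratios of 0.55, 0.60 and 0.64. EN1, PAX2 and PAX5 stayed past 1.5 times in the Boost-Chir direction on that scale, at 1.79, 1.83 and 1.89.

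H3K27me3 was found at 17 of the 18 loci in at least 1 condition, shorter in Boost-Chir at 11 and longer at 6, near the shares of all loci with that mark. EN1 held 24.5 kb in Low-Chir against 2.51 kb in Boost-Chir, PAX2 24.6 and 11.0 kb, PAX5 14.8 and 3.55 kb, OTX1 11.5 and 1.82 kb and FGF8 6.66 and 0.945 kb. SHH held 0 and 7.58 kb and LMX1A 0.972 and 6.41 kb. At EN1, PAX2, PAX5, OTX1 and FGF8 the longer H3K4me3 thus stood with shorter H3K27me3, and at SHH and LMX1A the reverse was measured. EN2, with no H3K4me3 peak in Low-Chir, held H3K27me3 over 5.95 and 5.65 kb.

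Forebrain and anterior genes were mostly narrower in Boost-Chir. Of 18 landmarks, 16 had a locus in both lists and FEZF2 and NKX2-1 had one in Low-Chir alone. At 9 of the 16 the covered length was at least 1.5 times as great in Low-Chir, beside 4.01% of all shared loci, and at 2 it was at least 1.5 times as great in Boost-Chir. The median ratio was 0.59. All 16 held H3K27me3 in Low-Chir, as did 50.2% of the 560 narrower loci and 21.99% of all shared loci. The 4.01% thus comes from an unlike set of loci. The strongest summit was at least 1.5 times as high in Low-Chir at 4 and in Boost-Chir at 0, beside 5.03% and 11.8% of all shared loci.

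DMRTA2, a factor of the dorsal telencephalon, had the lowest ratio of any shared locus. It covered 11.3 kb under 12 peaks in Low-Chir and 0.788 kb under 3 in Boost-Chir (chr1:50881934-50896320), with 29 reads (19.4 to 41.6) and 14 reads (7.65 to 23.5) at the strongest summit. PAX6, a patterning factor of the forebrain and other neural tissue, covered 9.65 and 2.52 kb (chr11:31825941-31839986), under 13 and 7 peaks. LHX9, a diencephalic LIM factor, covered 6.89 and 1.97 kb, DBX1, a factor of interneuron progenitors, 7.31 and 2.62 kb, and BARHL2, of the diencephalon, 3.34 and 1.74 kb. SIX3, which guards the anterior forebrain from WNT signals, covered 6.36 and 3.43 kb. FEZF1 covered 4.63 and 2.03 kb, and LHX2 1.67 and 1.08 kb.

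NKX2-2 is expressed along the ventral neural tube and is thus not particular to the forebrain. It covered 13.4 and 6.70 kb. NKX2-1, which marks the ventral forebrain, held 5 Low-Chir peaks over 3.40 kb, the highest at 6.81-fold, and FEZF2, of the forebrain and later cortex, held 3 over 1.66 kb, while neither had a Boost-Chir peak. Loci of Low-Chir alone made up 4.63% of all loci. The 2 loci past 1.5 times in the Boost-Chir direction were SIX6, 1.31 and 2.24 kb, and RAX, 0.259 and 0.411 kb, both eye-field genes with short loci. EMX2 covered 4.50 and 3.91 kb, DLX2 5.83 and 5.85 kb, DLX5 3.99 and 5.26 kb and NKX6-1, another ventral neural tube factor, 6.99 and 9.25 kb.

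All 16 forebrain loci held H3K27me3 in both conditions, shorter in Boost-Chir at 9 and longer at 7. Its length was counted inside each locus only, and several loci were nearly filled in both conditions, so a gain there could not show. The differences were mostly small, as at PAX6 with 13.3 and 13.2 kb and DMRTA2 with 13.9 and 14.2 kb. NKX2-2 held 8.04 and 16.8 kb. FEZF2 held 3.49 kb in each condition and NKX2-1 6.66 kb in each, which is the whole of both loci.

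The remaining lists were read in the same way. All 15 constitutive landmarks, among them TBP and PPIA, were in both lists with a median ratio of 1.38, 4 of them at least 1.5 times wider in Boost-Chir and 0 narrower. The 11 progenitor landmarks had a median ratio of 1.28, with 2 wider and 0 narrower. Among all shared loci 26.9% were wider and 4.01% narrower, so the wider counts of both lists are near the background.

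Summits were often displaced within shared loci. The strongest summit of each list lay within 100 bp of its partner at 4614 loci (33.1%) and within 250 bp at 7256 (52.0%), and 48% were farther apart. The median distance was 234 bp, the quartiles were 60 and 530 bp, and 1510 loci (10.8%) had summits over 1 kb apart. Counted in steps of 40 bp, 2658 loci lay under 40 bp, the count fell to 654 at 160 to 200 bp and then stood at 684 and 675 in the next pair of steps before falling again. The source of that shoulder was not tested.

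**Figure D3:**
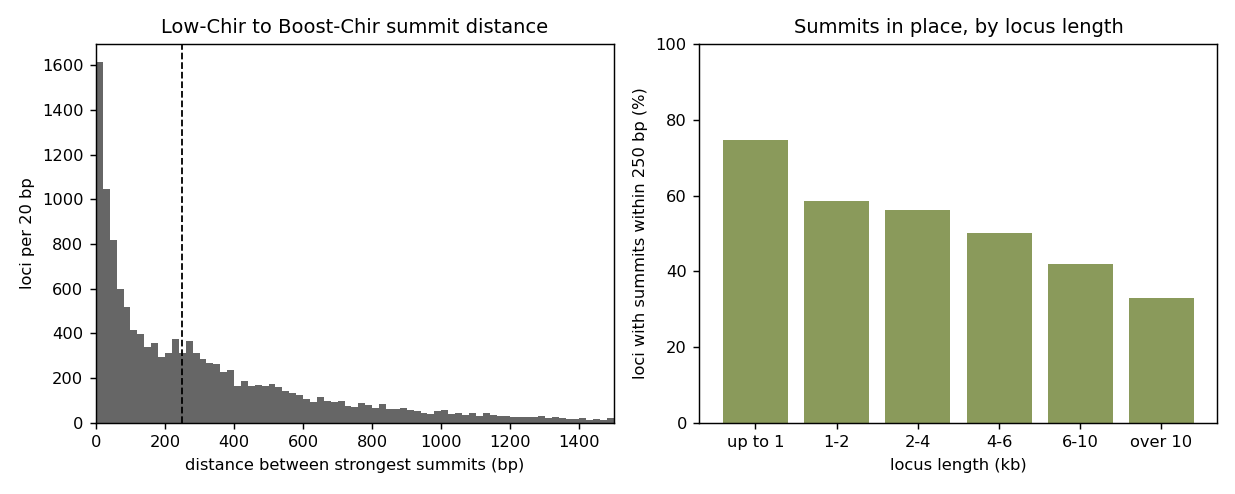
Left, number of shared loci by distance between the strongest Low-Chir and Boost-Chir summits (bp, steps of 20 bp, dashed line at 250 bp). Right, share of loci with summits within 250 bp by locus length (kb), which falls from 74.7% up to 1 kb to 33.0% over 10 kb.

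A displaced summit rarely meant a displaced domain. Where the strongest summits lay 500 to 1000 bp apart, 93.0% of the Low-Chir summits were still under a Boost-Chir peak and 90.4% of the Boost-Chir summits under a Low-Chir peak. Over 1 kb apart, both shares were 88.7%. The direction was even, with 49.7% of the summits over 1 kb apart lying to the left in Boost-Chir.

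The distance went with how clearly a summit led its locus. Where the strongest Low-Chir summit was under 1.1 times as high as the second, 34.4% of 1531 loci had summits within 250 bp. With a lead of 1.1 to 1.5 times the share was 44.0% of 3908, and with at least 1.5 times it was 56.2% of 5623. Loci with a single Low-Chir peak reached 64.0% of 2888. Loci with summits within 100 bp and those over 1 kb apart had similar length ratios, 1.29 and 1.25.

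Among the landmarks, 3 of 16 WNT loci (SP8, LGR5 and CCND1), 2 of 18 midbrain loci (PAX5 and PITX3) and 4 of 16 forebrain loci (SIX3, LHX2, DLX2 and DLX5) had strongest summits within 250 bp. These loci are long, with median spans of 10745, 12236.5 and 11737.5 bp, and among all loci over 10 kb the share was 33.0%. The strongest FOXA2 summits lay 7460 bp apart within a domain of over 20 kb in both conditions. Those of WNT5A lay 4523 bp apart and those of AXIN2 4021 bp apart.

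Enrichment at one and the same place was compared at matched summits, pairs of summits that were each other's nearest and lay within 250 bp. There were 17683 pairs, which held 41.5% of the Low-Chir and 39.0% of the Boost-Chir summits, in 11141 loci, with a median distance of 70 bp. The median fold enrichment was 6.30 in Low-Chir against 6.70 in Boost-Chir, and the median ratio was 1.05, with 5% of pairs below 0.62 and 5% above 1.76. The ranking was shared, with a Spearman rho of 0.786 over the 17683 pairs, which come from the same pair of libraries and lie partly in the same loci. Fold enrichment thus differed less than peak length at these places, but the scales are unlike. Fold is a ratio over background, whereas peak length was not adjusted for depth. Summit reads without that adjustment had medians of 22 (Low-Chir) and 28 (Boost-Chir). Whether the mark differed more in width than in height was not tested. The peaks under the same summits measured a median of 662 and 924 bp, and 72.9% were longer in Boost-Chir.

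**Figure D4:**
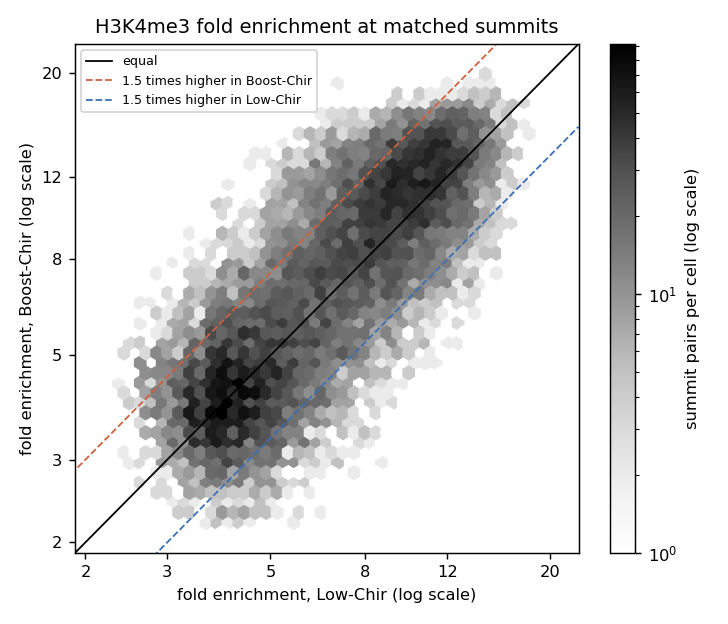
Fold enrichment at 17683 matched summits in Low-Chir (x) and Boost-Chir (y), log axes, with pairs counted per hexagonal cell (grey scale, log), equality as the solid line and 1.5 times as dashed lines. Most pairs lie between the dashed lines, and the dense group at high enrichment sits slightly above equality.

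A ratio of at least 1.5 was seen at 2084 pairs in the Boost-Chir direction (11.8%) and at 1308 in the Low-Chir direction (7.4%), so 61.4% of these pairs were higher in Boost-Chir. That split depended on the scale. By reads above background per unit of depth it was 50.7%. With the fold ratio divided by its median it was 47.2%, where a nearly even split follows largely from the division. Of the 2084 pairs, 789 (37.9%) were also 1.5 times higher by reads above background per depth, and of the 1308 pairs, 584 (44.6%) were so in the other direction. The local background moved with these calls. Its median was 3.43 reads in Low-Chir against 2.71 in Boost-Chir at the first group, and 2.34 and 4.51 at the second.

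The median ratio was higher for higher pairs, measured as the geometric mean of both folds. Pairs under 5-fold had a median ratio of 0.97, pairs of 5-fold to 8-fold 1.06, pairs of 8-fold to 12-fold 1.13 and pairs of at least 12-fold 1.14. By reads above background per depth the values were 0.94, 1.05, 1.12 and 1.09. Pairs at least 1.5 times higher in Low-Chir were 9.86%, 9.47%, 4.65% and 0.992% of the 4 classes, from weakest to strongest. Those at least 1.5 times higher in Boost-Chir were 7.10%, 14.4%, 16.9% and 6.83%, with no steady order. Peak length under the summit followed the same order, with median ratios of 1.15, 1.29, 1.37 and 1.38.

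The landmark lists held few matched summits each. The median ratio was 1.17 over 14 WNT pairs, 0.94 over 34 midbrain pairs and 0.92 over 30 forebrain pairs, beside 1.05 over all pairs. It was 1.12 over 30 constitutive pairs and 0.89 over 32 progenitor pairs, so these medians do not set the WNT and forebrain lists apart. They leave out loci without a pair, among them AXIN2, NKD1, DKK1, NOTUM, LEF1, RNF43 and FZD10, all wider in Boost-Chir. DMRTA2, FEZF1 and BARHL2, narrower in Boost-Chir, had no pair either. Most WNT pairs came from SP8, TCF7L2 and CCND1, with 4, 3 and 3. PAX5 had 3 pairs, at 1.599, 0.96 and 1.82. FGF8, whose locus was longer in Boost-Chir, had 6 pairs with a median of 0.84, of which 2 were higher in Boost-Chir. FOXA2, whose locus was shorter, had 4 pairs with a median of 1.19 by fold, of which 3 were higher in Boost-Chir. By reads above background per unit of depth the FOXA2 median was 0.94. Its pair with the most Low-Chir reads had 29 in Low-Chir and 13 in Boost-Chir. SHH had 2, at 13.8-fold against 7.90-fold and 5.29-fold against 3.54-fold. LMX1A had 2, at 10.5-fold against 6.78-fold and 5.10-fold against 2.90-fold. PAX6 had 2, at 6.57-fold against 3.27-fold and 4.76-fold against 3.37-fold. Pairs of 1 locus share their cells and region and are not independent.

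Width and height were only loosely tied across loci. The Spearman rho between the length ratio and the ratio of strongest folds was 0.228 over 13950 loci from the same libraries. The 3755 wider loci had a median fold ratio of 1.17, and 72.0% of them were higher in Boost-Chir, against 63.8% of all shared loci. The 560 narrower loci had a median fold ratio of 0.85, and 25.2% were higher in Boost-Chir.

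The narrower loci were short and often carried H3K27me3. Their median covered length was 1084 bp in Low-Chir against 462.5 bp in Boost-Chir within a median span of 1491.5 bp, and 50.2% of them held H3K27me3 in Low-Chir against 52.5% in Boost-Chir. Wider loci held it in 20.5% and 18.3%. Over all shared loci the shares were 21.99% and 21.3%, so H3K27me3 was more frequent at the narrower loci. Short loci in general held it more often, with 33.7% of loci up to 1 kb and 40.7% of those of 1 to 2 kb in Low-Chir, and the part of length in this difference was not tested.

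Several measures varied with locus length. The median ratio of covered length was 1.11 for 1110 loci up to 1 kb, 1.18 for 1719 of 1 to 2 kb, 1.26 for 3855 of 2 to 4 kb and 1.31 in each of the 3 longer classes. Narrower loci were 16.2% of the shortest class and 10.0% of the next, but 1.25% of loci of 4 to 6 kb and 1.05% of those of 6 to 10 kb. Wider loci were spread evenly, from 24.9% to 29.0% over the 6 classes. The ratio of strongest folds was 0.96 up to 1 kb and 1.12 to 1.14 from 2 kb upward. The span counts both lists, so a locus that is longer in either condition also belongs to a longer class.

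Summit distance grew with length. Within 250 bp lay 74.7% of loci up to 1 kb, 58.5% of 1 to 2 kb, 56.1% of 2 to 4 kb, 49.97% of 4 to 6 kb, 41.9% of 6 to 10 kb and 33.0% over 10 kb. The median distance was 96.5 bp in the shortest class and 586.5 bp in the longest. H3K27me3 in Low-Chir was most frequent in loci of 1 to 2 kb (40.7%) and least in those of 6 to 10 kb (11.1%).

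The 22 chromosomes gave similar ratios. The median length ratio ran from 1.23 on chromosome 4 to 1.33 on chromosome 16, and all chromosomes had longer loci in Boost-Chir at 77.9% to 86.9% of their shared loci. The ratio of strongest folds ran from 1.08 on chromosome 17 to 1.17 on chromosome 21, which has the fewest loci (139). At matched summits the range was 1.02 on chromosome 13 to 1.096 on chromosome 10. The share of summits within 250 bp varied more, from 44.4% on chromosome 13 to 60.5% on chromosome 22. Loci of Boost-Chir alone made up 5.03% on chromosome 21 to 10.1% on chromosome 11, and loci of Low-Chir alone 2.96% on chromosome 3 to 7.55% on chromosome 21.

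**Figure D5:**
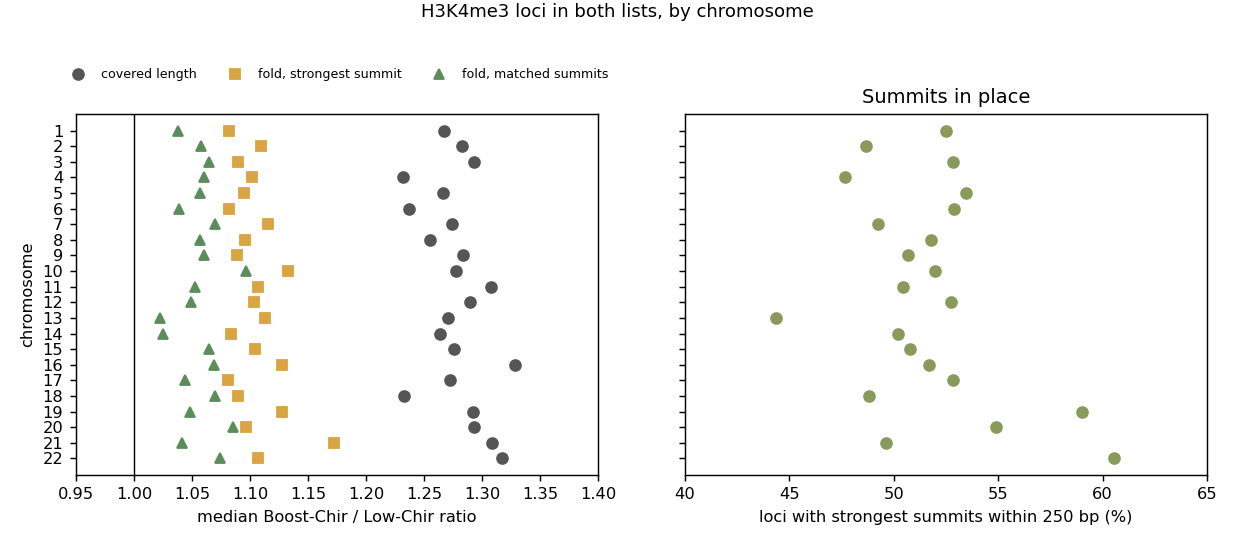
Left, median Boost-Chir over Low-Chir ratio of covered length, strongest fold enrichment and fold at matched summits for each of chromosomes 1 to 22. Right, share of shared loci with strongest summits within 250 bp. Covered length stands at 1.23 to 1.33 on every chromosome, to the right of both fold ratios.

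The loci with the most extreme ratios were ranked among the 12216 shared loci whose strongest peak was in the upper 50% of each list by −log10 q. Widest in Boost-Chir was chr7:155297845-155306160, with 0.594 kb in Low-Chir against 7.26 kb in Boost-Chir and 5.52-fold and 11.7-fold. It held 8.13 kb of H3K27me3 in Low-Chir against 4.76 kb in Boost-Chir. Next were chr7:156797012-156804501 (0.511 and 4.38 kb), chr16:30103416-30108077 (0.213 and 1.61 kb), chr19:46318261-46320425 (0.287 and 1.92 kb) and the DKK1 locus, at 5.75 times. DKK1 had the greatest length and height of these in Boost-Chir.

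Narrowest in Boost-Chir was chr5:92934241-92943676, with 3.15 kb in Low-Chir against 0.231 kb in Boost-Chir. Next were chr17:35291820-35299754 (3.23 and 0.461 kb), chr6:134210774-134217434 (2.80 and 0.591 kb), chr2:176944198-176953440 (3.12 and 0.673 kb) and chr8:93106485-93108096 (1.48 and 0.333 kb). The first 4 held 6.34 to 9.31 kb of H3K27me3 in both conditions, and the last 0 and 0.321 kb. Their strongest folds differed little, from a ratio of 0.79 to 1.12, so these loci differed in length and hardly in height. DMRTA2 was outside this ranking, since its strongest Boost-Chir peak was in the lower 50% of its list.

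The strongest summits lay farthest apart in long joined loci. At chr6:26178356-26227615, a stretch of the histone gene cluster, they lay 26629 bp apart with 14.01-fold in Low-Chir against 16.2-fold in Boost-Chir. The others were chr19:13041552-13069412 at 23342 bp, chr17:7107476-7160489 at 22290 bp, chr6:27632669-27656576 at 19705 bp and chr20:269205-291107 at 19502 bp. Their covered length ratios ran from 0.98 to 1.51.

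Matched summits were ranked by fold ratio among the 10706 pairs in the upper 50% of both lists, which leaves out pairs such as that of SP5, at 4.01 by fold and 2.78 by reads above background per depth. The 5 highest in Boost-Chir, led by the pair at chr17:73042758 in Low-Chir with 4.21-fold and 14.9-fold, had ratios of 3.10 to 3.54 by fold and 1.55 to 1.81 by reads above background per depth. Their Low-Chir backgrounds were 6.24 to 7.80 reads, well above the genome-wide 2.21. Of the 5 highest in Low-Chir, chr5:74532964, chr1:161591305 and chr3:53380898 had Boost-Chir backgrounds of 6.31 to 9.02 reads, and their ratios by reads above background were 1.83, 1.65 and 1.199. The other two kept theirs. At chr6:19840254 the reads were 49 in Low-Chir (36.3 to 64.8) and 19 in Boost-Chir (11.4 to 29.7), and at chr12:42982706 they were 45 (32.8 to 60.2) and 21 (13 to 32.1), ratios of 3.45 and 2.90.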

How the data were processed

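H3K4me3 was measured by ChIP-seq after enzymatic digestion of chromatin, with 1 library per condition. Per the submitters' processing notes, the authors used cutadapt 1.6, BWA 0.7.12, Picard and hg19. The peak caller is not given in the sources used here. Each deposited list gives, per peak, a fold enrichment (a ratio over local background), −log10 of the p-value and of the q-value, a score and a summit. Peak names in the deposited lists pair each library with the input of its condition, so nothing was pooled. The deposited score was not used. The inputs were not analysed here.

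Peaks were joined within 3 kb, and lengths under peaks, strongest summits (highest fold) and mutual nearest summits within 250 bp were compared. A difference means at least 1.5 times. Reads at a summit were solved from fold and p, taking the fold as reads plus 1 over background plus 1 and p as a Poisson tail, and for 100% of peaks this gave back −log10 p as deposited, within 0.001. H3K27me3 lengths are those of that mark's deposited peaks inside each H3K4me3 locus. Genes are named from the WNT, midbrain and forebrain lists, and other loci as the first 5 by each measure among those in the upper 50% of both lists. Single values of some list members are not reported here. Members and lists were chosen with earlier results of these data known. The scripts were tested on simulated data. Python 3.11.15, numpy 2.4.6, pandas 2.3.3, scipy 1.17.1 and matplotlib 3.10.9 were used.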

Additional observations from a re-analysis of the deposited data

How the results depend on the processing

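Of the recomputed values, 37 stayed within 1.5 times (counts) or, for a median over loci or pairs, inside its 95% binomial interval (1.271 to 1.284 for length, 1.049 to 1.060 for enrichment), and 18 moved. Median ratios stayed above 1 in all of them. No paired analysis was possible because only 1 library was made for each condition. The median length ratio was 1.27 with peaks joined within 1 kb, 1.31 with the upper 50% of each list and 1.27 with Boost-Chir peaks that pass at the Low-Chir depth, which keeps 97.3% of them at their called length and so hardly bears on length. The upper 50% left 317 narrower loci. Within 100 bp lay 4614 strongest summits. Matched summits numbered 10943 within 100 bp (1275 higher in Boost-Chir, 803 in Low-Chir) and 10741 in the upper 50% (1350 and 600), where the median enrichment ratio was 1.08. With −log10 q of at least 5 it was 1.08, with 706 higher in Low-Chir. By reads above background per depth it was 1.05, with 1142 higher in Boost-Chir. Dividing by the median length ratio, chosen after seeing the data, gave 1262 wider and 1292 narrower loci. That turns their order, though a nearly even split follows largely from the division itself. For the counts, fewer peaks or a shorter distance leave fewer members by construction; the cause of the other moves was not tested. Weak summits rest on 8 to 14 reads, where neither presence in 1 list nor a ratio of single peaks is precise.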

Other observations

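Landmarks of other lineages and of the hindbrain are given as values, and they were chosen for mention after their values were seen. TBXT, the mesodermal T-box gene, covered 0.482 kb in Low-Chir against 5.86 kb in Boost-Chir, with 3.37-fold and 6.73-fold, and held 6.39 and 6.04 kb of H3K27me3. TFAP2A, a neural crest and surface ectoderm factor, covered 0.662 and 2.85 kb. EOMES and FOXD3 were 1.602 and 1.54 times as long in Boost-Chir, GATA6, an endoderm factor, was shorter at 3.17 and 2.05 kb, and MYOD1 and SOX10 had no peak. Among hindbrain landmarks HOXB1 had no peak, HOXA2 covered 4.21 and 2.16 kb, HOXB2 1.49 and 1.04 kb, and EGR2 7.79 and 9.62 kb. ZIC1, in the progenitor list, covered 5.00 and 13.2 kb with H3K27me3 of 19.7 and 11.1 kb, and its strongest summits lay 11558 bp apart.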
